A study of Mus musculus with 8 samples.

Results

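The genes described here carry out the Fanconi repair of DNA interstrand crosslinks and the homologous recombination that completes it. They were measured by RNA-seq in cultured mouse primary tubular epithelial cells (TECs). The members are the genes of a list of 44 symbols that have a row in the deposited table, and 36 of the table's 14145 genes qualified. Palb2, Brip1, Rad51b, Rad51c, Rad54l, Poln, Rmi2 and Eme1 had no row and were not analysed here. Controls were 4 libraries labelled WT, from mice the series calls Aldh2Ctrl, and knockouts were 4 libraries labelled KO, from mice it calls Aldh2TEC-KO, a name that stands for loss of the mitochondrial aldehyde dehydrogenase Aldh2 in TECs. All 8 cultures were untreated, grown in medium with serum, and served for total RNA. The sources used here do not name the driver of the knockout, the strain, the age and sex of the animals, or whether mice were pooled. Nothing in the labels ties a library to its own animal, so a p-value here sets a difference against spread among libraries that may be technical. The genotype label reads as a knockout of ALDH2, ALDH3, ALDH4 or ALDH5 in knockout 1 to 4, and the titles were used for grouping instead.

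An interstrand crosslink ties both DNA strands together and blocks the replication fork. Reactive aldehydes such as acetaldehyde and formaldehyde can form such lesions, and Aldh2 is among the enzymes that clear them before they reach DNA. At a stalled fork the Fanconi core complex attaches ubiquitin to Fancd2 and Fanci, nucleases cut around the crosslink, translesion polymerases copy past the remnant, and the BRCA proteins help rebuild the broken strand by recombination. Many of these genes are transcribed mainly in dividing cells, and adult tubular cells divide little until they are injured or placed in culture.

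Values are FPKM, fragments scaled to gene length and to library depth, so they can be compared between genes per length. Whole reads could be recovered from them, and the depth was 17043000 to 17754000 reads or fragments in the controls and 17887000 to 18752000 in the knockouts. Aldh2 itself spanned 23.7 to 31.1 FPKM over the controls and 0.879 to 1.64 over the knockouts, so the labels and the targeted gene go together. By Xist and 4 Y-linked transcripts, knockout 1 and 2 were female, and knockout 3 and 4 and all 4 controls were male. Knockout 3 and 4 stood apart in a further way, since AT-rich genes were low there. Long genes were low in knockout 1, 3 and 4, as detailed with the members below. All 8 markers of tubular epithelium were measured, with summed levels of 1389 to 3016 FPKM in the controls and 831 to 6189 FPKM in the knockouts. Their median relative to the controls was -0.81 and -0.74 in knockout 1 and 2, and 0.02 and 0.48 in knockout 3 and 4. Of 8 proximal tubule markers 5 were measured, with sums of 14.4 to 61.4 and 11.5 to 41.9 FPKM, and Cubn, Slc34a1 and Slc5a2 were not among the genes analysed here.

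Differences were tested with limma on log2(FPKM + 1) over all 14145 genes, with Benjamini-Hochberg adjustment and a call at an adjusted p below 0.05. Differences on this scale understate the change of genes with low FPKM, and all differences are knockout minus control. No member passed (0 of 36), beside 11 of 14145 genes over the table (0.0778%), 0.0566% lower and 0.0212% higher. At an unadjusted p below 0.05 by limma there were 5 members lower and 0 higher, beside 11.6% of all genes lower and 7.58% higher. The fitted difference was negative for 32 of 36 members (88.9%), beside 55.5% of all genes. The median difference over the 36 was -0.31, and over all genes it was -0.06. For no member did all 4 knockouts lie below, or all 4 above, the controls, beside 6.86% of all genes for the lower case and 4.76% for the higher.

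Knockout 2 was below the control range for no member. There, 28 members lay within the range of the 4 controls, 8 above it and 0 below, beside 29.6% of all genes above and 21.1% below. In knockout 1, 23 members lay below the control range, in knockout 3 there were 27 and in knockout 4 there were 26, beside 38.5%, 45.9% and 40.3% of all genes. The other knockout libraries were thus low for most of the list while knockout 2 looked like the controls. The median member stood at -0.32, 0.07, -0.54 and -0.44 in knockout 1 to 4, relative to the control mean on the log2 scale, and at -0.04, -0.02, -0.08 and 0.16 in control 1 to 4. The lowest of all 8 values was found in knockout 3 for 19 members (52.8%, beside 33.3% of all genes), and the highest in control 4 for 20 members (55.6%, beside 18.6% of all genes).

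**Figure D1:**
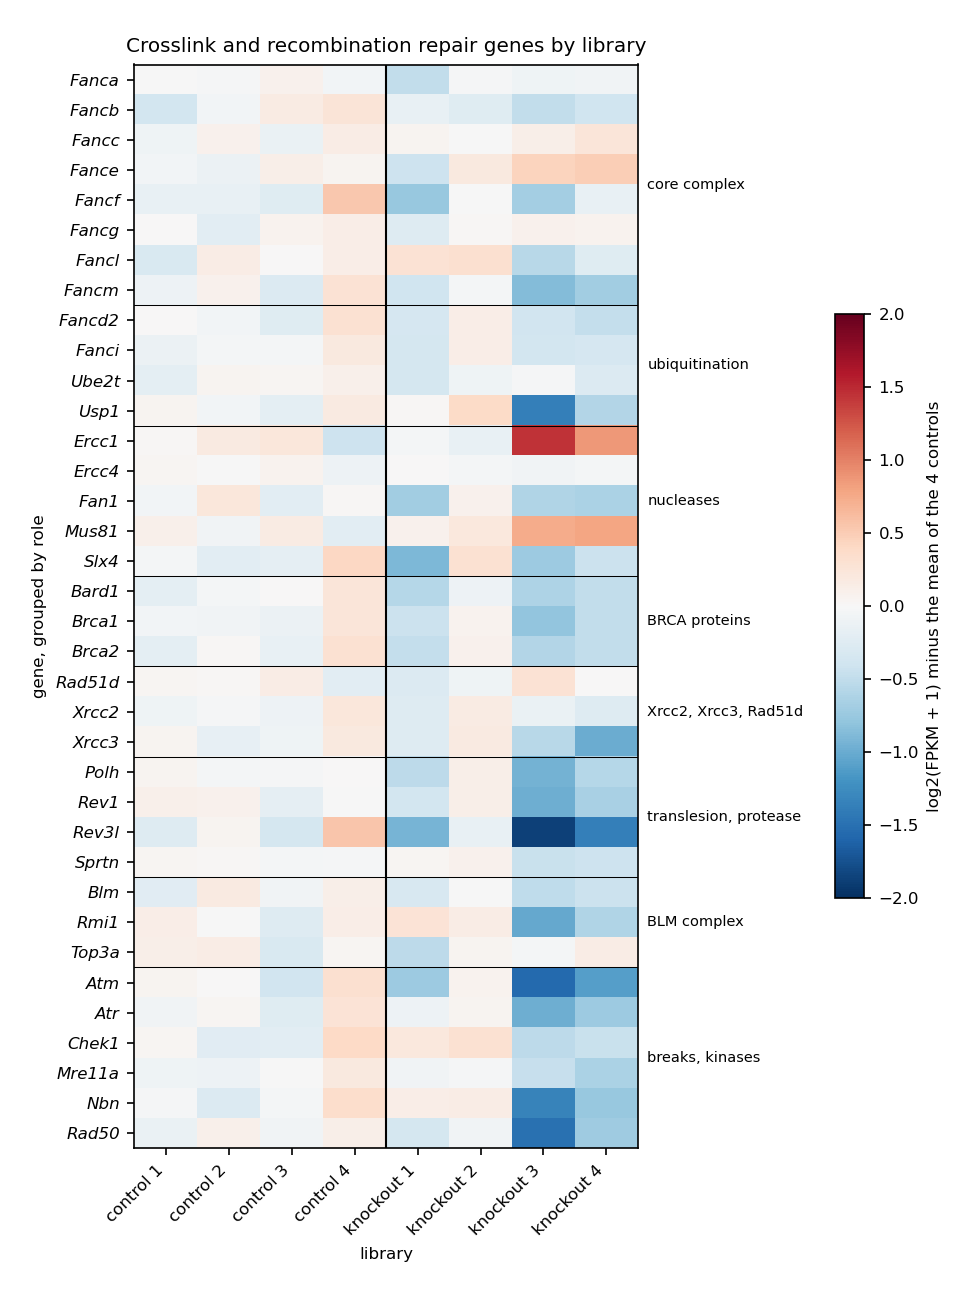
Each row is 1 of the 36 repair genes, grouped by role, and each column 1 library; colour gives log2(FPKM + 1) minus the mean of the 4 controls, blue for lower and red for higher. Knockout 1, 3 and 4 are mostly blue, with medians of -0.32, -0.54 and -0.44, knockout 2 resembles the controls at 0.07, and Ercc1, Mus81 and Fance are red in knockout 3 and 4.

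Most members were weakly transcribed. The control mean was below 1 FPKM for 10 members, between 1 and 5 FPKM for 14 and at 5 FPKM or more for 12, with Rad50 the highest at 11 FPKM and Fancd2 the lowest at 0.537 FPKM. The 10 below 1 FPKM were Brca2, Bard1, Fancd2, Fanci, Ube2t, Fanca, Fancb, Chek1, Blm and Xrcc2.

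In the core complex, the ubiquitin ligase assembled at the crosslink, 6 of 8 members had negative differences, with a median of -0.11. Fancm, the DNA translocase that recognises stalled forks and anchors the complex, lies on chromosome 12 from 65075603 to 65132058 in GRCm38. Fancm measured 1.05, 1.33, 0.825 and 1.67 FPKM in control 1 to 4, against 0.661, 1.14, 0.199 and 0.354 in knockout 1 to 4. Knockout 1, 3 and 4 lay below every control and knockout 2 lay among them (difference -0.50, SE 0.22, limma adjusted p = 0.253). Fancl, the subunit that carries the ligase activity, spanned 0.704 to 1.34 FPKM over the controls, with 1.56 and 1.62 in knockout 1 and 2 and 0.427 and 0.784 in knockout 3 and 4, so its knockouts lay on both sides of the controls. The scaffold subunit Fancf spanned 2.4 to 4.81 FPKM over the controls and 1.38 to 3.01 over the knockouts. Fance, which binds Fancd2, spanned 5.05 to 6.14 FPKM over the controls, with 3.94 and 6.51 in knockout 1 and 2 and 7.94 and 8.26 in knockout 3 and 4. Fancg differed by -0.02 (SE 0.17) and Fancc by 0.10 (SE 0.15), and Fanca and Fancb, both below 1 FPKM, differed by -0.17 and -0.32. Exons of a gene on the opposite strand cover 15.0% of the exon length of Fancf (Gas2), 13.7% of Fancl (Vrk2) and 10.5% of Fanca (Zfp276). Antisense genes cover 16.4% of Fancc (Gm16133) and 10.4% of Sprtn (Gm45709). The sources used here do not say whether the counting used strand, so reads in those stretches could belong to either gene.

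The ubiquitination step uses the conjugating enzyme Ube2t and the clamp pair Fancd2 and Fanci, and Usp1 later removes the ubiquitin. All 4 had negative differences (median -0.25). Fancd2 measured 0.525, 0.458, 0.291 and 0.872 FPKM in control 1 to 4, against 0.212, 0.676, 0.168 and 0.0972 in knockout 1 to 4. These levels stand for 41 to 120 reads in the controls and 14 to 96 in the knockouts. The difference of Fancd2 was -0.26 (SE 0.19, limma adjusted p = 0.447), with knockout 2 above 3 of the 4 controls. Fanci spanned 0.421 to 0.759 FPKM over the controls, against 0.216, 0.687, 0.194 and 0.219 in knockout 1 to 4, the same order of libraries as for Fancd2 in that knockout 2 alone reached the control range. Exons of Polg on the other strand cover 16.0% of Fanci. Usp1 spanned 5.58 to 7.59 FPKM over the controls, with 6.69 and 8.88 in knockout 1 and 2 and 1.91 and 4.04 in knockout 3 and 4. Ube2t spanned 0.575 to 0.942 FPKM over the controls and 0.416 to 0.772 over the knockouts.

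The incision nucleases did not share a direction, with 3 of 5 differences negative and a median of -0.04. Fan1, a nuclease recruited by ubiquitinated Fancd2, measured 2.70, 3.52, 2.33 and 2.92 FPKM in control 1 to 4, against 1.38, 3.06, 1.54 and 1.47 in knockout 1 to 4 (difference -0.46, SE 0.22, limma adjusted p = 0.275). Slx4, the scaffold that gathers the nucleases, spanned 4.15 to 6.96 FPKM over the controls, against 2.21, 6.33, 2.60 and 3.40 in knockout 1 to 4, so again only knockout 2 reached the controls. Mus81, the catalytic subunit of a structure-selective nuclease, lies on chromosome 19 from 5482345 to 5488402. Mus81 measured 5.91, 5.15, 6.24 and 4.56 FPKM in control 1 to 4, against 5.80 and 6.42 in knockout 1 and 2 and 9.70 and 10.1 in knockout 3 and 4 (difference 0.45, SE 0.21, limma adjusted p = 0.275). Ercc1, the partner that holds the nuclease Ercc4 on DNA, spanned 6.08 to 10.1 FPKM over the controls, with 8.24 and 7.55 in knockout 1 and 2 and 24.9 and 16.3 in knockout 3 and 4. Its partner Ercc4 stayed at 4.80 to 5.51 FPKM over the controls and 4.91 to 5.24 over the knockouts (difference -0.04, SE 0.15). Both subunits act as 1 enzyme, and in the deposited values their transcripts went apart in knockout 3 and 4. With the length and GC trends described below removed, Ercc1 differed by 0.33 and Ercc4 by 0.16. In the male libraries alone, with these trends removed, the differences were 0.67 and 0.23.

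The BRCA proteins, which promote repair of the broken strand by recombination, had negative differences in all 3 measured cases (median -0.41). Bard1, the obligate partner of Brca1 in its ubiquitin ligase, lies on chromosome 1 from 71027498 to 71103146. Bard1 measured 0.583, 0.767, 0.826 and 1.14 FPKM in control 1 to 4, against 0.221, 0.691, 0.188 and 0.292 in knockout 1 to 4, which is 57 to 112 reads against 20 to 70. Its mean was 0.83 ± 0.23 FPKM over controls and 0.35 ± 0.23 over knockouts (SD, n = 4). The difference was -0.45 (SE 0.18, limma adjusted p = 0.228), with knockout 1, 3 and 4 below every control. Brca1 measured 0.964, 0.956, 0.884 and 1.41 FPKM in control 1 to 4, against 0.509, 1.13, 0.187 and 0.458 in knockout 1 to 4 (difference -0.41, SE 0.20, limma adjusted p = 0.295). Brca2, a mediator of recombination, measured 0.454, 0.697, 0.504 and 1.05 FPKM in control 1 to 4, against 0.195, 0.762, 0.106 and 0.186 in knockout 1 to 4 (difference -0.37, SE 0.20, limma adjusted p = 0.329). In all 3 genes the same 3 knockout libraries were below every control and knockout 2 was inside the control range.

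Promoter sequence was examined because genes of this kind are often driven by E2F factors, the transcription factors of the start of S phase. RefSeq promoters (GRCm38.p6, 250 bases before to 50 after the start) were given for 28 of the 36 members. The E2F letters searched were TTTCCCGC, TTTCGCGC, TTTGCCGC and TTTGGCGC on both strands. They occurred in 4 of the 28 (14.3%), beside 4.61% of the 9936 genes of the table with a promoter entry and 2.6% of all 27025 genes with one. The members with a match were Bard1, Brca2, Fancg and Rmi1, the last of these after the start. The letters TTTGAA, a cell cycle element, occurred in Bard1 alone, beside 14.1% of the genes of the table. The stretches around the 3 matches before the RefSeq start are shown because Bard1 and Brca2 shared the order of libraries just described and Fancg did not. The GENCODE gene spans differ from these starts. By them the Fancg stretch lies inside its gene (43002343 to 43010506), and the Bard1 stretch overlaps its gene, which reaches 71103146. The 3 stretches run 5′ to 3′ on the strand of the gene, with the E2F letters in capitals, and in Brca2 the match is on the opposite strand. They are chr1:71103134-71103221 for Bard1 (minus strand), chr5:150522413-150522500 for Brca2 (plus strand) and chr4:43010306-43010393 for Fancg (minus strand).
Bard1: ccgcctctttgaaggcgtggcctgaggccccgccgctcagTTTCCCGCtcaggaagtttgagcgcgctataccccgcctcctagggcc
Brca2: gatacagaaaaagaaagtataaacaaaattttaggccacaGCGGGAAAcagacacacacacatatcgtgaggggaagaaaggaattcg
Fancg: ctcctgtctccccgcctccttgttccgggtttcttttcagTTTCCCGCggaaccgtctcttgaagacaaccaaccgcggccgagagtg

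A match of letters does not show that a factor binds there, and the split of members by it was not large. The 4 members with a match had a median difference of -0.33 and the 24 without had -0.30. Fancg holds the same letters as Bard1 in the same orientation, and it spanned 2.26 to 3.13 FPKM over the controls and 2.16 to 2.99 over the knockouts.

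Xrcc3, Xrcc2 and Rad51d assist strand exchange in recombination, and all 3 had negative differences (median -0.12). Xrcc3 measured 3.54, 2.90, 3.11 and 3.98 FPKM in control 1 to 4, against 2.65, 3.96, 1.98 and 1.2 in knockout 1 to 4 (difference -0.40, SE 0.25, limma adjusted p = 0.381). Xrcc2 was at 0.680 to 1.12 and 0.518 to 1.03 FPKM. Rad51d was at 5.62 to 7.52 and 5.37 to 8.41 FPKM, a difference of -0.01 (SE 0.18).

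The translesion polymerases, which copy across damaged bases, had negative differences in all 4 cases with the protease Sprtn (median -0.48). With a pseudocount of 0.1 their median was -0.63, and that of the BRCA proteins was -1.09. Rev3l, the catalytic subunit of polymerase zeta, lies on chromosome 10 from 39732118 to 39875211. Rev3l measured 4.55, 5.88, 4.21 and 8.78 FPKM in control 1 to 4, against 2.48, 5.00, 0.826 and 1.57 in knockout 1 to 4. Its mean was 5.85 ± 2.08 FPKM over controls and 2.47 ± 1.82 over knockouts (SD, n = 4). It had the most negative difference and the lowest p of the list (difference -1.08, SE 0.36, limma unadjusted p = 0.0141, adjusted p = 0.189), and its knockout mean was 42.2% of the control mean. Rev1, the scaffold to which the other polymerases dock, measured 3.22, 3.21, 2.49 and 2.94 FPKM in control 1 to 4, against 2.05, 3.30, 1.0 and 1.52 in knockout 1 to 4 (difference -0.47, SE 0.24, limma adjusted p = 0.305). Exons of Eif5b on the opposite strand cover 26.6% of Rev1. Polh, the polymerase known for copying past ultraviolet damage, was tight in the controls at 5.77, 5.37, 5.46 and 5.59 FPKM and spread in the knockouts at 3.55, 6.09, 2.41 and 3.39 FPKM (difference -0.48, SE 0.23, limma adjusted p = 0.277). Sprtn, which digests proteins crosslinked to DNA, a lesion that aldehydes also make, spanned 8.10 to 8.58 FPKM over the controls, with 8.52 and 8.86 in knockout 1 and 2 and 5.83 and 6.0 in knockout 3 and 4.

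Blm, Rmi1 and Top3a form the complex that dissolves the crossed strands left by recombination, and all 3 had negative differences (median -0.30). Blm, the helicase, measured 0.521, 1.02, 0.699 and 0.940 FPKM in control 1 to 4, against 0.433, 0.771, 0.261 and 0.32 in knockout 1 to 4 (difference -0.32, SE 0.17, limma adjusted p = 0.334). Rmi1 spanned 1.46 to 2.24 FPKM over the controls, with 2.54 and 2.26 in knockout 1 and 2 and 0.455 and 0.931 in knockout 3 and 4. The topoisomerase Top3a was at 2.99 to 4.44 and 2.41 to 4.42 FPKM.

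Break sensors and checkpoint kinases had negative differences in all 6 cases (median -0.45). Rad50, with Mre11a and Nbn part of the complex that holds broken ends, lies on chromosome 11 from 53649519 to 53707319. Rad50 measured 9.88, 11.8, 10.3 and 11.9 FPKM in control 1 to 4, against 8.36, 10.4, 3.25 and 6.27 in knockout 1 to 4 (difference -0.66, SE 0.28, limma adjusted p = 0.25). Nbn spanned 5.86 to 9.59 FPKM over the controls, with 8.10 and 8.23 in knockout 1 and 2 and 2.29 and 3.91 in knockout 3 and 4. The nuclease Mre11a followed with 4.29 to 5.50 FPKM over the controls, 4.43 and 4.6 in knockout 1 and 2 and 3.14 and 2.67 in knockout 3 and 4. All 3 subunits were below the control range in knockout 3 and 4, and in knockout 1 and 2 they were inside it apart from Rad50 in knockout 1. Atm, the kinase that answers to broken ends, lies on chromosome 9 from 53439149 to 53536740. Atm measured 3.29, 3.17, 2.18 and 4.20 FPKM in control 1 to 4, against 1.5, 3.35, 0.407 and 0.933 in knockout 1 to 4 (difference -0.83, SE 0.33, limma adjusted p = 0.229). Atr, the kinase of stalled forks, spanned 1.0 to 1.87 FPKM over the controls, with 1.22 and 1.47 in knockout 1 and 2 and 0.201 and 0.441 in knockout 3 and 4. Its target kinase Chek1 spanned 0.430 to 1.19 FPKM over the controls, against 0.926, 1.06, 0.161 and 0.226 in knockout 1 to 4.

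**Figure D2:**
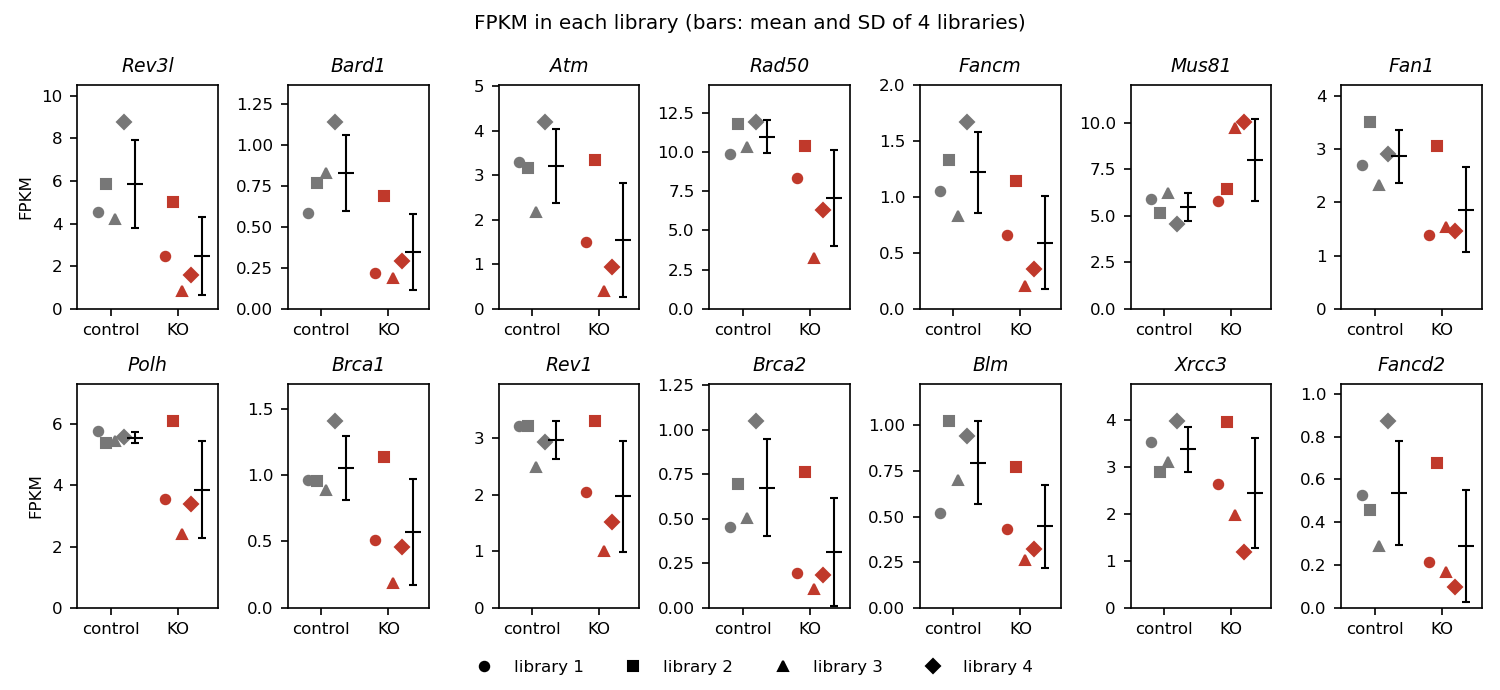
FPKM of 14 repair genes in each library, grey for control and red for knockout (KO), with 1 symbol shape per library number and the mean and SD (n = 4) beside each group; shapes do not pair libraries. Knockout 2 (squares) lies inside or above the control range in every panel, while in every panel but that of Mus81 the other 3 knockouts lie below all controls.

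Gene length moved with these values. The 36 members are longer than most genes, with a median exon length of 5717 bp beside 3954 bp for all genes, and a median transcript GC content of 46.5% beside 49.7%. Over 14129 genes with a length and a GC content, Spearman's rho of the difference with length was -0.39 and with GC content 0.38. Over the 36 members both relations were of the same size, at -0.39 and 0.39. Genes are not independent replicates and share the libraries, so these coefficients are descriptions. The GC relation over all genes was 0.62 in knockout 3 and 0.59 in knockout 4, 0.05 in knockout 2, and of opposite sign in knockout 1 at -0.27. The length relation was -0.27, -0.07, -0.37 and -0.34 in knockout 1 to 4.

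By length class the members lay close to other genes in the longest class and below them in the middle classes. At 8000 bp and over, 8 of 9 members had a negative difference, beside 85.1% of 2195 genes, with medians of -0.41 and -0.40. From 4000 to under 8000 bp all 16 members were negative, beside 63.7% of 4797 genes, with medians of -0.28 and -0.14. From 2000 to under 4000 bp, 7 of 10 members were negative, beside 42.9% of 3967 genes, with medians of -0.03 and 0.07. Only Fancf, at 1691 bp, was shorter. Every class holds fewer than 20 members. Ercc1 and Mus81, at 3111 and 3567 bp with 57.6% and 55.3% GC, were the 2 members with the most positive differences, while Atr, the longest at 23629 bp with 40.8% GC, was among those lowest in knockout 3.

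**Figure D3:**
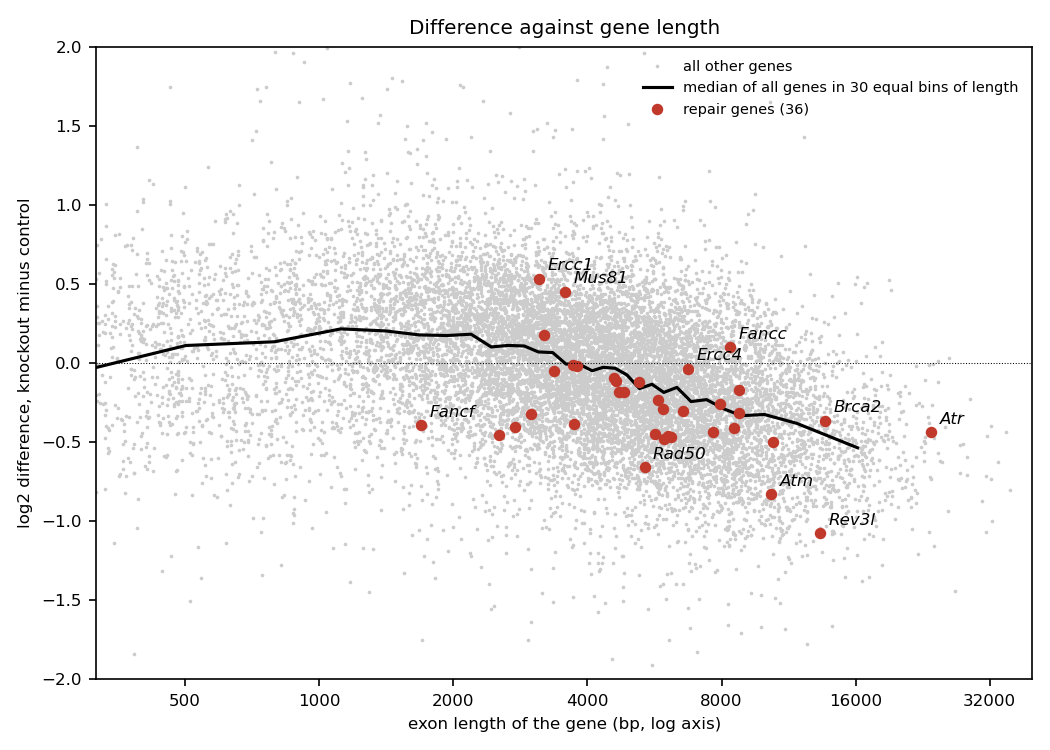
Log2 difference (knockout minus control, log2(FPKM + 1)) against exon length in bp on a log axis, for all genes in grey and the 36 repair genes in red; the line joins the medians of 30 bins with equal numbers of genes, and 334 genes fall outside the axes. The line drops over the longer genes, Brca2 lies near it, Atr lies beyond its end, and Rev3l, Atm, Rad50 and Fancf lie below it.

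With the trends on length and GC content removed from each library, 22 of 36 members (61.1%) had a negative difference, beside 49.6% of all genes, and the median was -0.04, beside 0.00 over all genes. No member passed limma (0), beside 0.0142% of all genes, and 3 were lower and 1 higher at an unadjusted p below 0.05, beside 11.3% and 9.87% of all genes. Rev3l kept a difference of -0.50, Rad50 of -0.42, Fan1 of -0.39 and Atm of -0.32, while Fancm was at -0.04 and Brca1 at -0.04. Brca2, Blm, Atr and Fancd2 were among those that turned positive, at 0.22, 0.10, 0.27 and 0.08. Fancf moved away from 0, from -0.39 to -0.72, and Xrcc3 from -0.40 to -0.64. The median left after removal differed between scales. With a pseudocount of 0.1 in place of 1 the median over the members was -0.55 before removal, beside -0.10 over all genes, and -0.26 after it, beside 0.01, with 27 of 36 members negative, beside 49.5% of all genes. On that scale Brca2 was at -0.29, Blm at -0.21 and Fancd2 at -0.40 after removal, so the sign of these 3 genes follows the pseudocount.

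The male libraries alone, 4 controls against knockout 3 and 4, gave 16 members lower and 3 higher at an adjusted p below 0.05 by limma. Beside them stand 26.7% of all genes lower, where the members had 44.4%, and 17.6% higher. Lower were Rev3l (difference -1.62, adjusted p = 0.00612), Atm (-1.33), Rad50 (-1.10), Nbn (-1.05), Usp1 (-0.98), Atr, Rev1, Rmi1, Fancm, Xrcc3, Polh, Brca1, Fan1, Bard1, Mre11a and Sprtn. Higher were Ercc1 (1.16, adjusted p = 0.00932), Mus81 (0.76) and Fance (0.47). With both trends removed from the same male libraries, 6 members passed by limma, beside 10.3% of all genes lower and 11.6% higher. These were Xrcc3 (-1.26, adjusted p = 0.0115), Nbn (-0.73), Fan1 (-0.58), Polh (-0.39) and Sprtn (-0.31), lower, and Mus81 (0.41), higher. Rev3l (-0.58, adjusted p = 0.0870) and Rad50 (-0.60, adjusted p = 0.0525) did not pass there. Nor did Usp1, Atm, Rev1 and Ercc1, which kept their sign at -0.53, -0.40, -0.37 and 0.67. Fancm, Rmi1, Brca1, Bard1 and Mre11a lay between -0.07 and 0.04. Atr turned from -0.85 to 0.40 and Fance from 0.47 to -0.06, neither past the threshold. Other fits also gave calls by limma. A sex covariate gave 14 members lower and 2 higher, beside 21.6% and 12.6% of all genes. With both trends removed it gave 2 lower, beside 6.33% of all genes. The female libraries are all knockouts, so this fit has the same differences as the male libraries alone and is no separate check. Limma-voom with sample quality weights on recovered reads gave 21 lower and 3 higher, beside 30.7% and 22.4% of all genes. Leaving out knockout 2 alone gave 3 lower (Rev3l, Polh and Atm), beside 5.28% of all genes. The female knockouts have no female control, so in knockout 1 and 2 genotype and sex cannot be told apart. Without knockout 3 and 4 the median over the members was -0.12, beside 0.00 over all genes, and no member had an unadjusted p below 0.05 by limma (0 lower and 0 higher, beside 8.43% and 7.8% of all genes).

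Proliferation genes moved with the members across libraries. Of 28 measured genes of replication and mitosis, none of them a member, 24 (85.7%) had a negative difference, beside 55.5% of all genes. The median difference of the 28 was -0.27. By limma 0 passed, beside 0.0778% of all genes, and 2 were lower at an unadjusted p below 0.05, beside 11.6%. The medians of the proliferation genes in knockout 1 to 4 were -0.44, 0.26, -0.64 and -0.35, and 0.02, -0.15, -0.09 and 0.25 in control 1 to 4. Control 4 and knockout 2 were thus the 2 libraries highest for both lists, and knockout 3 the lowest for both. With the length and GC trends removed the proliferation medians stayed at -0.48, 0.22, -0.57 and -0.33 in knockout 1 to 4, whereas those of the members were -0.18, 0.05, 0.00 and -0.06. With a pseudocount of 0.1 and both trends removed, the median difference was -0.42 over the proliferation genes and -0.26 over the members. With a pseudocount of 1 these were -0.24 and -0.04, so how near 0 the members lay followed the pseudocount. The part of cell division in the members' differences was not tested, and in bulk RNA fewer dividing cells and less RNA per cell cannot be told apart.

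**Figure D4:**
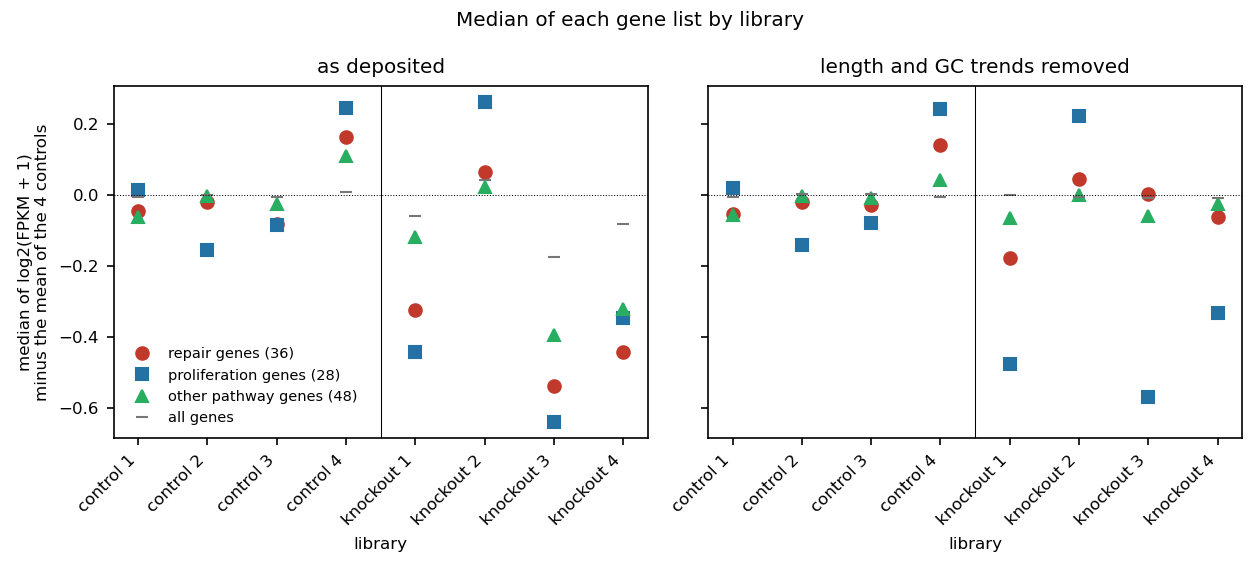
Median of each gene list in each library, as log2(FPKM + 1) minus the mean of the 4 controls, with the deposited values on the left and the trends on length and GC content removed on the right. On the left the repair genes (red) and the proliferation genes (blue) are low in knockout 1, 3 and 4, and on the right the repair genes of knockout 3 and 4 lie at 0.00 and -0.06 while the proliferation genes stay low. With a pseudocount of 0.1 and both trends removed (not drawn), the median differences were -0.26 for the repair genes and -0.42 for the proliferation genes.

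Other genes of the pathway were counted in the same way. Of 60 further symbols, older names included, 48 had a row. Of these 30 (62.5%) had a negative difference, beside 55.5% of all genes, and 18 a positive one (median -0.18). By limma 0 passed, beside 0.0778% of all genes. At an unadjusted p below 0.05 by limma, 7 were lower and 3 higher, beside 11.6% and 7.58% of all genes. For 4 of the 48 all knockouts lay below the controls and for 1 above, beside 6.86% and 4.76% of all genes. With both trends removed the median of the 48 was -0.05, beside -0.04 for the members. The 4 of lowest p included 2 of the Fanconi pathway proper. Cenpx, a small histone-fold partner of Fancm, spanned 9.75 to 10.6 FPKM over the controls, against 16.5, 12.1, 21.3 and 20.8 in knockout 1 to 4, with no overlap (difference 0.73, SE 0.20, limma adjusted p = 0.148). Cenpx is short, at 1077 bp, and its difference was 0.44 with the trends removed. Rfwd3, a ubiquitin ligase that acts on proteins at damaged DNA, spanned 10.7 to 13 FPKM over the controls, against 7.24, 9.06, 5.53 and 6.31 in knockout 1 to 4, again with no overlap (difference -0.65, SE 0.18, limma adjusted p = 0.154). The cell cycle kinase Wee1 differed by -0.71, also with no overlap, and Rif1, which protects broken ends from resection, by -0.98, neither past the threshold. With the trends removed Rfwd3 was at -0.36, Wee1 at -0.74 and Rif1 at -0.44. Of 6 genes that clear aldehydes, 5 had a positive difference and Aldh2 itself the negative one. Aldh1a1, a cytosolic aldehyde dehydrogenase, measured 0.845, 1.18, 1.46 and 0.0818 FPKM in control 1 to 4, against 54.4, 6.11, 7.80 and 3.81 in knockout 1 to 4, with no overlap (difference 2.65, SE 0.67, limma adjusted p = 0.138). Adh5, the formaldehyde dehydrogenase, spanned 19.2 to 20.7 FPKM over the controls and 25.8 to 30.1 over the knockouts (difference 0.46, limma adjusted p = 0.164).

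Markers of other cell types also differed between libraries. All 12 macrophage and leukocyte markers were measured, with sums of 91.2 to 1037 FPKM in the controls and 225.5 to 1710 FPKM in the knockouts. Of 10 fibroblast and pericyte markers 7 were measured, with sums of 135 to 1180 and 592 to 1771 FPKM, and Pdgfra, Dcn and Lum were not among the genes analysed here. By gene rather than by sum, 6 of these 7 had a negative difference (median -1.40), beside 55.5% of all genes. Their medians were -1.59, -1.37, -1.05 and -1.03 in knockout 1 to 4, and 1.31, -0.56, -0.27 and -0.98 in control 1 to 4. With the length and GC trends removed 4 of the 7 were negative, beside 49.6% of all genes. Of 8 endothelial markers 3 were measured, at sums of 5.1 to 7.2 and 1.6 to 3.3 FPKM. None of the measured markers was at 0 in all libraries. The macrophage median was 1.99, -0.31, -0.29 and -1.53 in control 1 to 4 and 0.86, 3.00, 0.14 and 2.16 in knockout 1 to 4. It was highest in knockout 2 and lowest in control 4, and both libraries were high for the repair genes. Their part in the members' differences was not tested.

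The authors' deposited table gives a down mark to 4 members and an up mark to 0, beside 3.37% and 2.34% of all genes. They are Rev3l, Bard1, Fancm and Atm, with log2 fold changes of -1.22, -1.21, -1.02 and -1.03 in the authors' deposited table. The authors' deposited table gives Rev3l, the lowest of the list, a p-value of 0.0122 and an adjusted p-value of 0.552.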

How the data were processed

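RNA-seq of 8 libraries was analysed from 1 table of 14145 genes. The deposited values are taken as the authors' FPKM, although the table is named as counts, because they carry decimals. Per the submitters' processing notes FastQC, STAR 2.4.1d, DESeq2 and GRCm38 were used; the sources used here do not name the counter, annotation or row filter. A log2 fold change and p-values per gene, deposited by the authors in that table, are quoted only as theirs. No value column lacked a sample (0). Values were multiplied by GENCODE M21 exon length (14134 genes), and the depth of each library was chosen to make those of low read number whole. At that depth 95.0% to 95.5% of these lay within 0.05 of a whole read, a share that is not a separate check. GC content is that of the longest transcript.

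Differences were fitted with limma 3.58.1 (R 4.3.3) on log2(FPKM + 1) with a variance trend and genotype as the only term. Trends on length and GC were removed per library by lowess (span 0.3). The code was tested on simulated data. The members and lists were chosen with earlier results of these data known. All members are named; those given in every library are the 12 of lowest p and the lowest of each role group, and up to 4 other pathway genes are named by p. Members outside that rule given by single library were chosen after their values were seen. Alternatives were other pseudocounts, a filter, median-ratio scaling, no variance trend, a replicate block, a sex covariate, male libraries alone, limma-voom on recovered reads, and left-out libraries. Python 3.11.15, pandas 2.3.3 and matplotlib 3.10.9 were used.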

Additional observations from a re-analysis of the deposited data

Results flagged for a closer look

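Among 72 groups of 4 values (36 members, 2 groups), 6 held a library far from the other 3 by Dixon's criterion, which chance meets in about 1 in 20 groups. Knockout 2 was the high one for Fanci (0.687 FPKM, the others 0.194 to 0.219), for Fan1 (3.06 FPKM, the others 1.38 to 1.54) and for Brca2 (0.762 FPKM, the others 0.106 to 0.195). Control 4 was the high one for Fancf (4.81 FPKM, the others 2.4 to 2.64) and for Brca1 (1.41 FPKM, the others 0.884 to 0.964). Knockout 1 was the low one for Fanca (0.180 FPKM, the others 0.566 to 0.644).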

How the results depend on the processing

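The count of members past the threshold was 0 in the main limma fit, with all 8 libraries and genotype as the only term. It was 16 with a sex covariate (14 lower, 2 higher), beside 21.6% of all genes lower and 12.6% higher. In male libraries alone it was 19 (16 lower, 3 higher), beside 26.7% and 17.6%. By limma-voom with sample quality weights it was 24 (21 lower, 3 higher), beside 30.7% and 22.4%. With both trends removed it was 6 in male libraries (5 lower, 1 higher), beside 10.3% and 11.6%. A sex covariate with both trends removed gave 2, both lower, beside 6.33% of all genes. Leaving out each library in turn gave 0 to 3 members and medians of -0.41 to -0.20. The 3 (Rev3l, Polh and Atm) came without knockout 2 and were lower, beside 5.28% of all genes. The median of -0.31 became -0.55 with a pseudocount of 0.1, -0.57 and -0.74 by limma-voom without and with sample weights, -0.10 with the length trend removed, -0.042 with both trends removed, -0.031 with both removed in male libraries, -0.031 with both removed and a sex covariate, and -0.068 with both removed without knockout 3 and 4.

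Signs turned with trends removed for Brca2 (0.093 for length, 0.22 for both, 0.50 in male libraries and 0.50 with a sex covariate), Blm (0.10, then 0.29 and 0.29), Fancd2 (0.013 for length, 0.083 for both, 0.16 and 0.16, and 0.0032 without knockout 3 and 4) and Fancm (0.0067 in male libraries and 0.0067 with a sex covariate). The cause was not tested. The settings that add trend removal to another choice were chosen after seeing the data. The sex covariate and the male libraries alone give the same differences, so their equal values stand for the same contrast. With the replicate number as a block 0 members passed; same-numbered libraries correlated at 0.04, -0.20, 0.56 and -0.06, so the numbers were not used as pairs. Fancd2, the lowest member by control mean FPKM, rests on 14 to 120 reads a library, and Fancb, a shorter gene, on 13 to 55.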
